A study of Mus musculus with 12 samples.

Results

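Mural cells wrap the small vessels of the brain. Pericytes, the mural cells of capillaries, share a basement membrane with the endothelium, need the PDGF-B that endothelial cells release, and carry ATP-sensitive potassium channels. Fibroblasts of the leptomeninges line the brain surface, where they lay down fibrillar collagen and secrete retinoic acid and the chemokine Cxcl12, signals that reach the developing cortex and hippocampus.

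The mural and leptomeningeal stromal cells of the dentate gyrus at P7 were chosen by measured values. A cell was a member when UMIs (unique molecular identifiers, each 1 captured RNA molecule) were present for at least 3 of 9 marker genes and for at most 1 of 4 endothelial genes. The markers were *Pdgfrb*, *Rgs5*, *Vtn* and *Kcnj8* of mural cells, and *Col1a1*, *Col1a2*, *Col3a1*, *Dcn* and *Lum* of fibroblasts. The endothelial genes were *Cldn5*, *Flt1*, *Pecam1* and *Cdh5*. Of 24213 filtered cells, 158 were members. Levels of the chosen genes in these cells therefore describe the choice and support nothing further.

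The cells came from 3 libraries of micro-dissected dentate gyrus, 1 library per genotype, each made from the pooled gyri of several littermates and sequenced from the 3′ end of transcripts. One library was wild-type, and the others carried homozygous floxed *Larp7* with a Cre transgene, 1 as *Larp7* f/f;nestin-Cre and 1 as *Larp7* f/f;Emx1-Cre. Kidney, stomach and lung are, per the study, also targets of nestin-Cre, which in the brain is not limited to 1 kind of cell. Emx1-Cre acts in progenitors of the dorsal forebrain. Either removes 1 exon of *Larp7*. The study used mice with floxed *Larp7* as its wild-type controls, and its Cre stocks are B6.Cg-Tg(Nes-cre)1Kln/J and B6.129S2-Emx1 tm1(cre)Krj/J. The sex of the pooled animals is not given for the libraries. The title and the genotype entry of each mutant library name opposite Cre lines. The titles were followed here. They fit the study's cell numbers, as the library titled Emx1-Cre holds 6821 barcodes, fewer than the nestin-Cre cells that the study counts. *Larp7* levels were not used to tell the lines apart. They were low in both mutants in the neural cells read below. Neural cells from outside the dorsal forebrain were not read separately. Values are given in the order wild-type, nestin-Cre and Emx1-Cre throughout.

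The libraries held 12876, 7177 and 6821 barcodes with 28918491, 26689878 and 28537738 UMIs. Cells with more than 500 genes and under 15% mitochondrial UMIs numbered 10997, 6685 and 6531, with median depths of 1782, 3644 and 3873 UMIs. The wild-type cells were thus the shallowest. With 1 library per genotype no difference between genotypes was tested, and cells of 1 library are not replicates. Intervals are 95% limits from exact Poisson or binomial formulas and cover counting error only. Libraries shared 23 (wild-type and nestin-Cre), 19 (wild-type and Emx1-Cre) and 11 (nestin-Cre and Emx1-Cre) cell barcodes, 0 of them in members.

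*Larp7* (ENSMUSG00000027968, mm10 chromosome 3, 127536714 to 127553349) encodes the La-related protein that stabilises 7SK RNA and so restrains P-TEFb, the kinase that releases paused RNA polymerase II. Its level was read first, as a check on the genotype labels. In neuronal-like cells it was 57.4, 10.2 and 14.3 CPM (UMIs of the gene per 1000000 UMIs, both summed over the cells of a library), and in astroglial-like cells 53.1, 8.4 and 8.98 CPM. Both mutant libraries were low in these neural cells, with log2 ratios to wild-type of -2.50 (-2.81 to -2.20) and -2.00 (-2.29 to -1.73) in the neuronal-like cells. In endothelial-like cells the level was 46.8, 67 and 47.8 CPM (20, 11 and 12 UMIs), with log2 ratios of 0.52 (-0.69 to 1.65) and 0.03 (-1.14 to 1.13). In microglial-like cells it was lower in both mutants, at 66.5, 40.3 and 46.8 CPM (62, 51 and 32 UMIs). The log2 ratios there were -0.72 (-1.29 to -0.165) and -0.505 (-1.17 to 0.13). The intervals of the endothelial-like and microglial-like cells do not reach the ratios of the neuronal-like cells. The 3′ reads need not cover the removed exon, so a level above 0 in a mutant is not a measure of intact transcript.

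The members held too few *Larp7* UMIs for such a reading. There were 7, 3 and 3 UMIs in all members together, or 38.2, 23.5 and 15 CPM, with log2 ratios of -0.70 (-3.28 to 1.43) and -1.35 (-3.94 to 0.78). The intervals span both no difference and the ratio of the neuronal-like cells, so at this depth neither can be told from the other. In members with more mural than fibroblast UMIs (the mural side) 1, 3 and 2 UMIs were counted, all at or under the floor of 3 UMIs, and no ratio is given. In those with more fibroblast than mural UMIs (the fibroblast side) there were 6, 0 and 1 UMIs. The nestin-Cre count of 0, with a floor of 39.0 CPM, stood against 80.7 CPM in wild-type, and the exact upper limit of its log2 ratio was -0.29. The Emx1-Cre log2 ratio was -1.48 (-7.00 to 1.56). In marker-rich fibroblast-like cells, a narrower choice described next, the counts were 4, 3 and 1 UMIs, with log2 ratios of -0.72 (-3.50 to 1.84) and -1.02 (-6.64 to 2.32), so no difference was detectable there. Other genes of the 7SK and P-TEFb list (*Hexim1*, *Hexim2*, *Mepce*, *Cdk9*, *Ccnt1*, *Ccnt2* and *Larp4b*) were sparse too, and none reached 100 UMIs over the marker-rich mural-like and fibroblast-like cells. The whole list, 9 genes of which are in the files, summed to 343, 298 and 373 CPM on the mural side and 525, 351 and 347 CPM on the fibroblast side.

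Members numbered 85, 25 and 48. Cells with exactly 3 markers, the last to enter, numbered 28, 4 and 15 and held a median of 4, 4.5 and 8 UMIs of the 9 markers. Cells with exactly 2, just outside, numbered 117, 118 and 126, with a median of 2, 3 and 3 marker UMIs. A further 65, 15 and 98 cells held at least 3 markers and were left out because at least 2 endothelial genes were present. Of the members, 14, 5 and 19 had UMIs of 1 endothelial gene.

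Each member was put on a side by its sums of *Rgs5*, *Vtn* and *Kcnj8* against *Col1a1*, *Dcn* and *Lum*. The mural side held 48, 11 and 41 cells, the fibroblast side 28, 12 and 6, and 9, 2 and 1 cells were tied. Doublets were kept in these numbers. *Vtn*, which encodes the secreted adhesion protein vitronectin, was as high in collagen-rich cells as in *Rgs5*-rich ones. A further division, chosen after the data were seen, therefore left *Vtn* out of the sum and asked for at least 10 UMIs over the 9 markers. It gave 17, 5 and 31 marker-rich mural-like cells and 24, 15 and 7 marker-rich fibroblast-like cells, and 1 tied wild-type cell. *Vtn* was at 3155, 2943 and 3376 CPM in the former and 2743, 4223 and 5288 CPM in the latter. The remaining 43, 5 and 10 members were poor in markers and are given no name.

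The sides and the marker-rich groups did not coincide. Of the 48 wild-type cells on the mural side, 17 were mural-like, 5 fibroblast-like, 1 tied and 25 marker-poor. Of the 11 nestin-Cre cells there, 5 were mural-like and 6 fibroblast-like, so most of that side in nestin-Cre went against its name. Of the 41 Emx1-Cre cells, 31 were mural-like, 1 fibroblast-like and 9 marker-poor. The fibroblast side held 17, 9 and 6 fibroblast-like cells and 11, 3 and 0 marker-poor ones, and no mural-like cell in any library. The tied cells were 2, 0 and 0 fibroblast-like and 7, 2 and 1 marker-poor. The plot of marker sums shows the same members cell by cell.

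**Figure D1:**
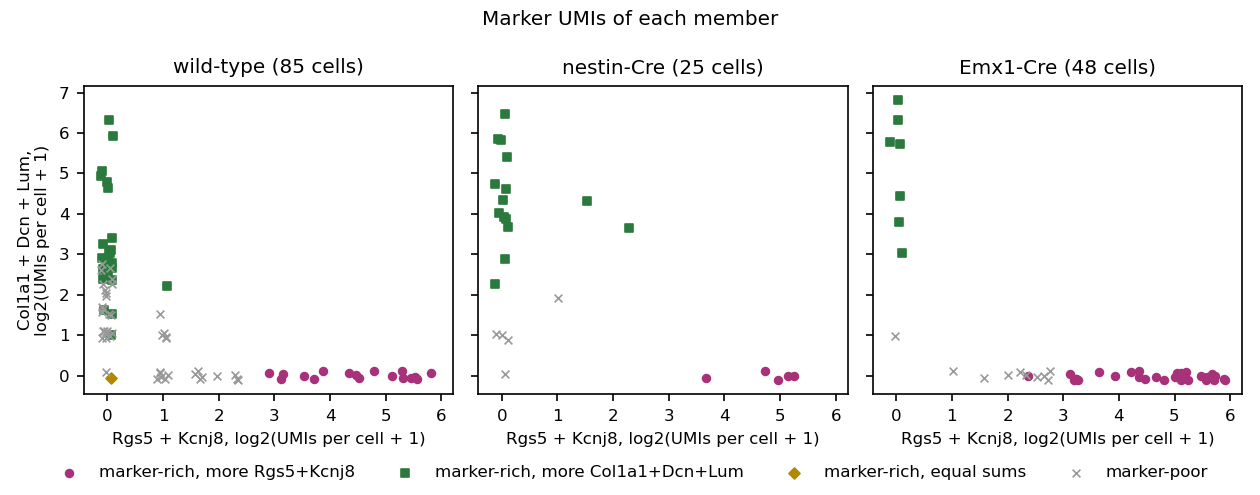
UMIs of *Rgs5* and *Kcnj8* (x axis) against UMIs of *Col1a1*, *Dcn* and *Lum* (y axis) in each member, 1 panel per library. Marker-rich mural-like cells lie along the x axis and marker-rich fibroblast-like cells along the y axis, with marker-poor members near the origin.

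The division used *Rgs5*, *Kcnj8*, *Col1a1*, *Dcn* and *Lum*, so their place in the 2 kinds describes the choice and is no test of it. None of the 17, 5 and 31 mural-like cells had a UMI of *Col1a1*, *Dcn* or *Lum*. Of the fibroblast-like cells, 1 of 24, 2 of 15 and 0 of 7 had a UMI of *Rgs5* or *Kcnj8*. *Vtn* was present in all mural-like cells of the 3 libraries, and in 23, 15 and 7 of the fibroblast-like cells. Among the marker-poor members, 19, 1 and 9 had *Rgs5* or *Kcnj8*, 28, 4 and 1 had *Col1a1*, *Dcn* or *Lum*, and 5, 1 and 0 had some of each.

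Markers that the rule did not use separated the same cells. A list of 16 other mural genes gave 9288, 9166 and 8555 CPM in mural-like cells, with 15, 15 and 16 genes present, a median of 9, 9 and 9 per cell, and *Higd1b* the most abundant. The same list gave 511, 402 and 824 CPM in fibroblast-like cells. A list of 15 other leptomeningeal fibroblast genes gave 5527, 7556 and 9062 CPM in fibroblast-like cells, with 12, 14 and 14 present, a median of 3, 7 and 9 per cell, and *Igf2* the most abundant. In mural-like cells it gave 1834, 3616 and 1715 CPM. Each list was thus higher in the cells of its name in every library. On the mural side as a whole the mural list was lower, at 5242, 2622 and 6342.5 CPM with a median of 2, 3 and 8 genes per cell.

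By level alone the 2 kinds shared much. In every library the 10 most abundant transcripts of mural-like cells were the noncoding *Malat1*, at 12936, 11520.3 and 19674 CPM, mitochondrial transcripts led by *mt-Atp6* and *mt-Co3*, *Tmsb4x*, which encodes an actin-binding peptide, *Actb*, the cytoplasmic actin, *Tpt1*, a translation-associated protein, and *Rgs5*. Those of fibroblast-like cells also held *Malat1* and *mt-Co3*, together with *Ptgds*, *Ptn* and the noncoding *Gm42418* in every library, *Apoe* in nestin-Cre, and *Col3a1* and *Col1a2* in Emx1-Cre.

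Genes were then compared between the mural-like and fibroblast-like cells, to ask which functions set them apart. Of 536 genes with at least 100 UMIs in these cells, 23 (4.29%) were at least 2-fold higher in mural-like cells in each of the 3 libraries and 32 (5.97%) at least 2-fold higher in fibroblast-like cells. The median log2 ratio of all 536 was 0.19 (mural-like over fibroblast-like). The rule chose the cells from the same data, so these counts describe the groups and test nothing. Genes of short lists that are named for passing 2-fold were chosen after their values were seen. A level of 0 has as its floor a count of 3 UMIs, which was 59.2, 252 and 26.5 CPM in mural-like and 40.3, 32.6 and 79.7 CPM in fibroblast-like cells.

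Mural-like cells carried the parts of a pericyte's excitability control. *Rgs5* (ENSMUSG00000026678), a brake on signalling from G protein-coupled receptors, was at 7553, 10848 and 7212 CPM in mural-like cells and 13.4, 65.1 and 0 CPM in fibroblast-like cells. Its lowest, median and highest UMI counts per mural-like cell were 6, 19 and 44 in wild-type, 12, 26 and 35 in nestin-Cre and 3, 29 and 55 in Emx1-Cre. The gene was present in every mural-like cell, and its ranges overlapped between libraries. *Kcnj8*, the pore of the ATP-sensitive potassium channel, was at 1183, 757 and 1096 CPM, and *Abcc9*, the channel's sulfonylurea receptor, at 789, 1009 and 636 CPM. Neither had a UMI in the fibroblast-like cells of any library. Of the 4 genes with enough UMIs on a list of 20 for potassium channels, calcium and cyclic nucleotide signalling, *Rgs5*, *Kcnj8* and *Abcc9* were higher in mural-like cells and 0 in fibroblast-like cells. The first 2 chose these cells, and *Abcc9* alone is outside the rule. Among the sparser members of that list, *Rgs4*, a relative of *Rgs5*, was at 315.5, 673 and 433 CPM in mural-like cells, and *Gucy1a3*, a subunit of the nitric oxide receptor guanylate cyclase, at 335, 504.5 and 557 CPM.

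Contractile genes were among the others compared between the kinds. *Higd1b*, which encodes a mitochondrial protein of the hypoxia-inducible domain family, was at 2800.2, 2270.4 and 2545 CPM in mural-like cells and at 0 UMIs in fibroblast-like cells. *Ndufa4l2*, a hypoxia-inducible relative of a respiratory chain subunit, was at 1361, 1429.5 and 1335 CPM against 188, 86.8 and 159 CPM. Both were high in the mural-like cells of all 3 libraries. *Gjc1*, the gap junction protein connexin of mural and cardiac cells, was at 749, 504.5 and 707 CPM against 53.8, 10.9 and 0 CPM. *Sept4*, a cytoskeletal septin, was at 907, 1093 and 848.5 CPM against 40.3, 32.6 and 79.7 CPM. *Myl9*, a regulatory light chain of myosin, was at 1578, 1514 and 1211 CPM against 53.8, 65.1 and 79.7 CPM, and *Cald1*, the actin-binding caldesmon, at 2879, 4373 and 2925 CPM against 444, 391 and 824 CPM. On the list of 16 contractile genes, 5 had enough UMIs, of which *Myl9*, *Cald1* and *Myl6*, another myosin light chain, were higher in mural-like cells and 0 in fibroblast-like cells, with a median log2 ratio of 1.57.

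The contractile genes of arterial smooth muscle were another matter. The list of 10 smooth muscle genes gave 111, 3 and 42 UMIs in mural-like cells (2189, 252 and 371 CPM), with 6, 2 and 3 genes present. Most of the wild-type sum came from 1 cell of 6876 UMIs, which held 6 of the 10 genes, with 65 UMIs of *Acta2* (smooth muscle actin) and 26 of *Tagln* (transgelin). No mural-like cell of the mutant libraries held as many as 3 of these genes. The wild-type cell was singled out after its values were seen.

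Receptors and transcription factors of mural cells were sparse. *Pdgfrb*, the receptor for PDGF-B, was at 769, 589 and 787 CPM in mural-like and 121, 109 and 79.7 CPM in fibroblast-like cells. It was the 1 gene with enough UMIs on a list of 32 for PDGF, angiopoietin, Notch and TGF-beta signalling, and it was higher in mural-like cells. As *Pdgfrb* is a gene of the rule, this count describes the choice of cells, and the list gives nothing outside it. *Notch3*, a receptor that maintains mural cells, was at 296, 336 and 194 CPM against 26.9, 10.9 and 0 CPM, and *S1pr3*, a sphingosine phosphate receptor, at 197, 589 and 186 CPM against 0, 54.3 and 0 CPM. *Cspg4*, the NG2 proteoglycan, was at 355, 336 and 362 CPM and had no UMI in fibroblast-like cells. Among transcription factors, *Ebf1* was at 552, 589 and 371 CPM against 26.9, 0 and 79.7 CPM, *Foxs1* at 276, 336 and 194 CPM against 0 in every library, and *Tbx2* at 256, 168 and 97.2 CPM against 0, 10.9 and 0 CPM. *Hes1*, a Notch target among the 10 genes most in favour of the mural side, was at 354, 277 and 342 CPM on that side and 53.8, 52.0 and 86.7 CPM on the fibroblast side.

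Matrix genes of fibroblast-like cells were partly genes of the rule. *Col1a1* (ENSMUSG00000001506), a chain of type I collagen, was at 2367, 2421 and 5076 CPM, and its partner *Col1a2* at 2689.5, 3116 and 6271 CPM. *Col3a1*, of type III collagen, was at 2649, 2627 and 7706 CPM, and *Dcn*, the collagen-binding proteoglycan decorin, at 2098, 1889 and 3747 CPM. *Lum*, the related lumican, was lower, at 148, 130.3 and 319 CPM. The Emx1-Cre cells were the highest of the 3 libraries for all 5 genes, but 3 of the 7 cells held 163 of the 191 *Col1a1* UMIs. In mural-like cells *Col1a1*, *Dcn* and *Lum* had no UMI, while *Col1a2* was at 256, 252 and 221 CPM and *Col3a1* at 78.9, 841 and 150.2 CPM. Of 18 collagens on the fibrillar list, 4 had enough UMIs, and *Col1a1*, *Col1a2* and *Col3a1* were higher in fibroblast-like cells and 0 in mural-like cells. All 3 are genes of the rule, so this count mostly restates how the cells were chosen, and the 1 other collagen with enough UMIs was not 2-fold apart in every library. Of 31 matrix proteoglycans and enzymes, 5 had enough UMIs. *Dcn*, *Pcolce* and *Timp3*, an inhibitor of matrix proteases, were higher in fibroblast-like cells, and 0 in mural-like cells, and of these *Dcn* is in the rule. Outside it, *Pcolce*, an enhancer of procollagen cleavage, was at 498, 651 and 1329 CPM against 197, 0 and 88.4 CPM, and *Col6a1*, of type VI collagen, at 269, 326 and 983 CPM against 0 UMIs.

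Retinoid genes were also on the fibroblast-like side. *Ptgds*, which encodes prostaglandin D2 synthase, a carrier of retinoids in cerebrospinal fluid, was at 13071, 39171 and 47115 CPM in fibroblast-like cells. It was the most abundant transcript there in both mutants, and second to *Malat1* (30028, 34513 and 25006 CPM) in wild-type. In mural-like cells it was at 19.7, 0 and 0 CPM, and in endothelial-like cells at 0 UMIs in every library. *Aldh1a2*, the enzyme that makes retinoic acid, was at 417, 564.5 and 1222 CPM in fibroblast-like cells with no UMI in mural-like cells. Of the 13 genes on the retinoid list 3 had enough UMIs, and all 3 were higher in fibroblast-like cells. *Ptgds* and *Aldh1a2* are on that list, and both were highest in Emx1-Cre and lowest in wild-type. With the highest cell of each library left out *Ptgds* was at 9638, 27926 and 22883 CPM. Nestin-Cre was then the highest and wild-type still the lowest.

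Secreted signals came next. *Cxcl12*, a chemokine that guides migrating granule cell precursors, was at 928, 1086 and 1648 CPM in fibroblast-like and 39.4, 0 and 8.84 CPM in mural-like cells. *Igf2*, an imprinted growth factor, was present in both kinds of cell, at 1949.9, 2692 and 3189 CPM and 631, 2186 and 857 CPM, as was *Ptn*, the heparin-binding pleiotrophin, at 9696, 10759 and 14244 CPM and 3727, 5466 and 4516 CPM. Both were higher in the fibroblast-like cells of every library. Binding proteins for these growth factors differed in kind. *Igfbp2* was at 1735, 2160.5 and 1913 CPM in fibroblast-like and 39.4, 84.1 and 159 CPM in mural-like cells, and *Igfbp5* at 363, 380 and 1435 CPM with no UMI in mural-like cells. *Igfbp7* had the opposite order, at 40.3, 21.7 and 53.1 CPM and 2307, 1766 and 1812 CPM. *Wnt4*, a secreted Wnt ligand, was at 511, 575 and 771 CPM and had no UMI in mural-like cells. *Mdk*, the growth factor midkine, was at 1076, 749 and 1648 CPM against 256, 504.5 and 283 CPM. Of 31 secreted signals, 9 had enough UMIs, of which *Cxcl12*, *Igfbp2*, *Igfbp5*, *Igfbp6* and *Wnt4* were higher in fibroblast-like cells and *Igfbp7* in mural-like cells.

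Transport genes and further secreted or surface proteins followed the same division. *Slc6a13*, a carrier of GABA and taurine, was at 861, 814 and 1196 CPM against 0, 0 and 8.84 CPM in mural-like cells. *Slc7a11*, the cystine and glutamate exchanger, was at 659, 792.5 and 478 CPM against 0, 0 and 8.84 CPM. These were the 2 genes with enough UMIs on a list of 20 transporters, and both were higher in fibroblast-like cells. The anion transporter *Slc22a6* was at 188, 282 and 159 CPM and *Slc13a4*, a sulfate carrier, at 121, 195 and 133 CPM, with no UMI of either in mural-like cells. *Serpinf1*, the anti-angiogenic factor PEDF, was at 699, 923 and 1329 CPM against 0, 0 and 26.5 CPM, and *Apod*, a lipid-binding lipocalin, at 1143, 1911 and 1621 CPM against 59.2, 168 and 141 CPM. *Islr*, a surface protein with leucine-rich repeats, was at 484, 640.5 and 797 CPM against 0, 0 and 8.84 CPM, and *Cdkn1c*, an imprinted cell cycle inhibitor, was at 484, 636 and 809 CPM on the fibroblast side and 60.6, 149 and 62.2 CPM on the mural side. *Pdgfra*, the PDGF-A receptor of fibroblasts, was at 215, 337 and 159 CPM with no UMI in mural-like cells.

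Several lists had no gene that passed 2-fold in the same direction in every library. Of 18 basement membrane genes, 5 had enough UMIs and none was 2-fold apart in the same direction in every library, with a median log2 ratio of 0.67. *Col4a1*, of type IV collagen, was at 2426, 4541 and 2121 CPM in mural-like, 1358, 999 and 2578 CPM in fibroblast-like and 1251, 1236 and 1341 CPM in endothelial-like cells, and *Sparc*, a collagen-binding glycoprotein, was at 2071, 2439 and 2537 CPM in mural-like, 3590.4, 4049.5 and 5660.2 CPM in fibroblast-like and 5369, 6014 and 5610.5 CPM in endothelial-like cells. Both genes were present in all 3 kinds of cell, and *Sparc* was over 2-fold higher in endothelial-like than in mural-like cells of every library. Patterning factors of the meninges were present in both kinds of member. *Foxc1* was at 197, 168 and 150.2 CPM in mural-like and 202, 249.7 and 478 CPM in fibroblast-like cells, and *Zic1* at 375, 168 and 194 CPM in mural-like and 296, 315 and 478 CPM in fibroblast-like cells. *Tbx18* was at 59.2, 168 and 53 CPM in mural-like and 202, 293 and 531.5 CPM in fibroblast-like cells, higher in the latter in every library. The list of 37 transcription factors had 1 gene with enough UMIs, *Zic1*, and it was not 2-fold apart in every library. The same was true of the 1 gene, *Hmgb2*, of the cell cycle list of 20 (median log2 ratio 2.15, on 58, 1 and 72 UMIs in mural-like cells), of 7 genes of the immediate early and heat shock list of 14, of *Ifitm1*, *Ifitm2* and *Ifitm3* of the interferon list of 12 (median log2 ratio 0.67) and of the 1 gene, *Xist*, of the list of 6 sex-linked genes (log2 ratio -0.99). No gene of the 12 p53 targets had enough UMIs.

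**Figure D2:**
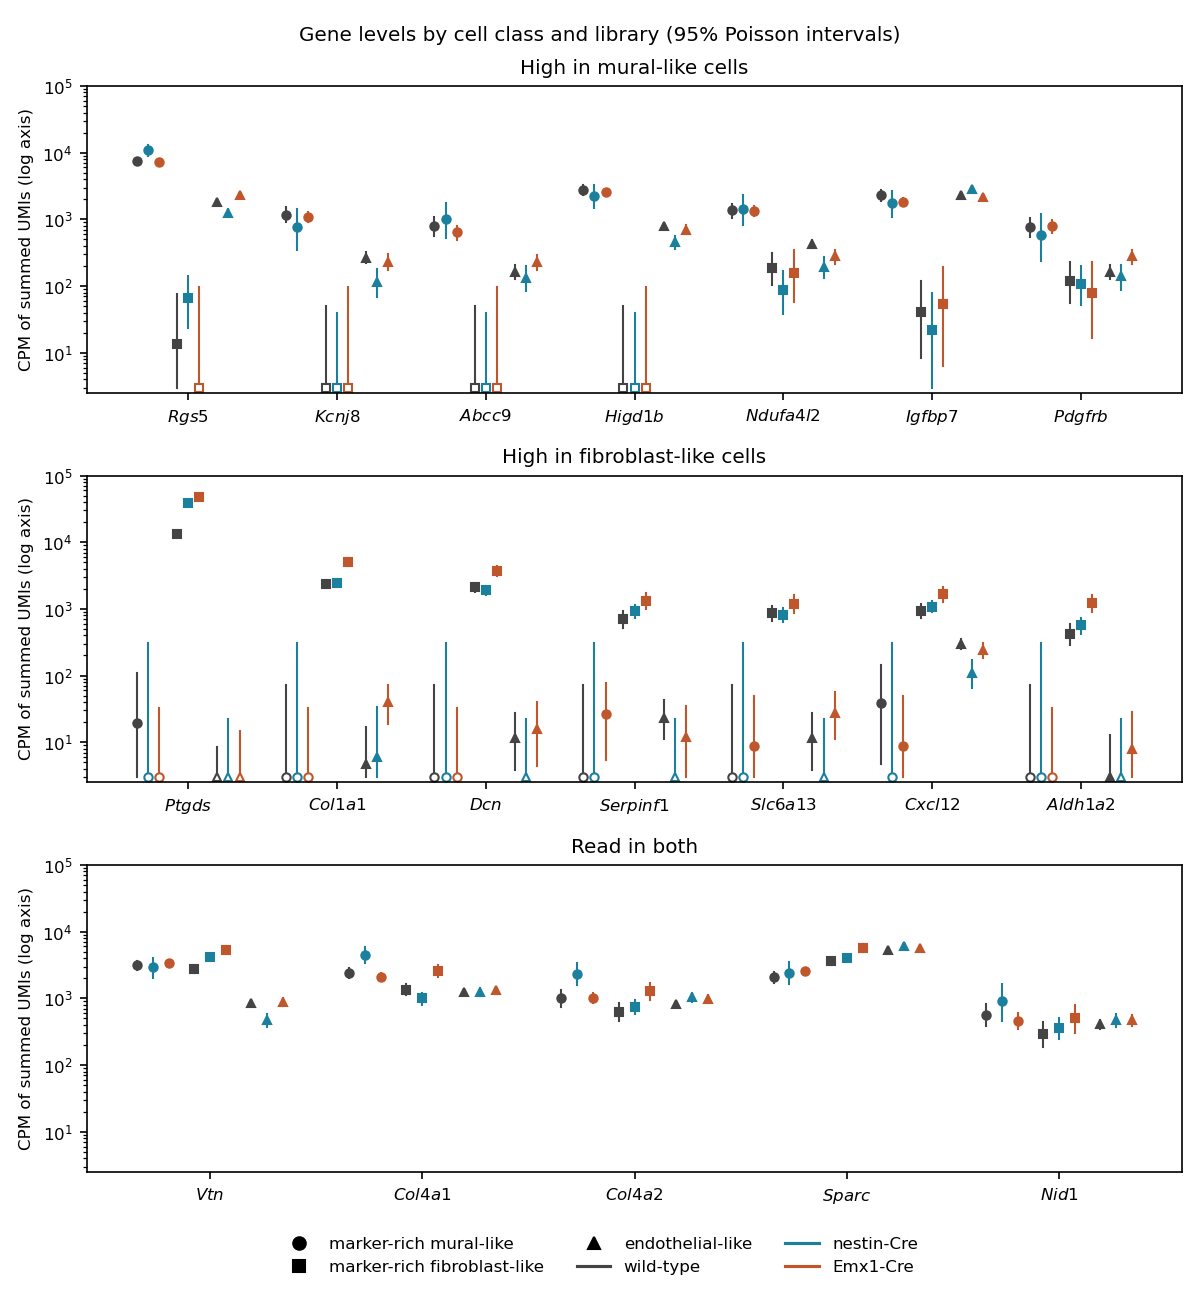
Levels in CPM (log axis) of genes of each role in marker-rich mural-like, marker-rich fibroblast-like and endothelial-like cells, 1 point per library. *Rgs5*, *Kcnj8* and *Abcc9* are high in mural-like cells of all 3 libraries, and *Ptgds*, *Col1a1* and *Dcn* in fibroblast-like cells.

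The cells nearest to these in the tissue, endothelial-like cells with at least 3 of the 4 endothelial genes, numbered 72, 26 and 36. They were not free of mural RNA. *Rgs5* was at 1812, 1236 and 2296 CPM in them, *Higd1b* at 807, 456.5 and 704 CPM and *Vtn* at 863, 475 and 895 CPM, each below the mural-like cells of the same library. Fibroblast genes were scarcer there, with *Col1a1* at 4.68, 6.09 and 39.8 CPM and *Dcn* at 11.7, 0 and 15.9 CPM. In the other direction, the 11 endothelial markers outside the rule gave 16, 2 and 116 UMIs in mural-like cells (315.5, 168 and 1025 CPM), with 4, 1 and 10 genes present. The most abundant was *Emcn* in wild-type and nestin-Cre and *Esam* in Emx1-Cre. In endothelial-like cells the same list gave 5803.5, 6598 and 5646 CPM. The Emx1-Cre mural-like cells thus held the most endothelial RNA of the 3 libraries, and the part of this RNA in other differences was not tested.

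RNA of neural cells was present in the members as well. The list of 12 astroglial genes gave 3135.5, 2691 and 5453 CPM in mural-like and 5688, 6177 and 1462 CPM in fibroblast-like cells, with 12, 5 and 12 genes present in the former and 12, 12 and 7 in the latter. *Fabp7* was the most abundant except in Emx1-Cre fibroblast-like cells, where it was *Slc1a3*. In astroglial-like cells the list gave 20342, 20610.2 and 20976 CPM. The list of 12 neuronal genes gave 1459, 1261 and 2139 CPM in mural-like and 2609, 858 and 159 CPM in fibroblast-like cells (194, 79 and 6 UMIs, 12, 10 and 3 genes present), against 9639.8, 11831 and 11774 CPM in neuronal-like cells. The fibroblast-like cells of Emx1-Cre were the poorest in both neural lists. The part of this RNA in gene differences between genotypes was not tested.

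Microglial, oligodendrocyte and choroid plexus lists gave few UMIs, and the red blood cell list gave more. The 12 genes of microglia and macrophages gave 3, 0 and 8 UMIs in mural-like and 12, 2 and 3 in fibroblast-like cells. The 10 genes of oligodendrocytes gave 13, 2 and 36 UMIs in mural-like and 34, 44 and 7 in fibroblast-like cells. The 7 genes of choroid plexus and ependyma gave 0, 0 and 1 UMIs in mural-like and 1, 3 and 0 in fibroblast-like cells, and *Ttr*, the abundant transthyretin of that tissue, had no UMI in either kind in any library. The 5 red blood cell genes gave 1025, 0 and 3217 CPM in mural-like and 1197, 0 and 79.7 CPM in fibroblast-like cells, with *Hbb-bs* the most abundant. The marker-rich nestin-Cre cells thus held no haemoglobin UMI. On the mural side 18, 0 and 13 cells held at least 3 of 4 haemoglobin genes.

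UMIs of marker genes in cells of other kinds set a background for these shares. *Rgs5* UMIs were found in 2.85, 1.85 and 1.91% of neuronal-like cells, at median depths of 3060, 3596.5 and 3769.5 UMIs, and in 18.1, 29.9 and 34.4% of astroglial-like cells, at 2039, 3885 and 4016 UMIs. All mural-like cells had one, at 2224, 2530 and 2742 UMIs. With every cell thinned to 1500 UMIs and shallower cells left out (5, 0 and 4 of the mural-like cells), *Rgs5*, which helped to choose the mural-like cells, was in 12 of 12, 5 of 5 and 26 of 27 of them, in 1.18, 0.856 and 0.681% of neuronal-like cells and in 14.8, 17.7 and 20.1% of astroglial-like cells. The share in astroglial-like cells was above that in neuronal-like cells in each library. In astroglial-like cells *Rgs5* was at 115, 133 and 168 CPM and *Vtn* at 5.23, 0.413 and 5.1 CPM, all unthinned. Whether free RNA in the droplets or the cells themselves gave these UMIs was not tested. *Higd1b*, which is outside the rule, was in 10 of 12, 5 of 5 and 23 of 27 thinned mural-like cells. *Ptgds* was in 8 of 17, 9 of 13 and 5 of 7 thinned fibroblast-like cells (7, 2 and 0 left out) and in 12 of 24, 13 of 15 and 5 of 7 unthinned. In neuronal-like cells it was in 1.12, 2.05 and 1.84%, unthinned. *Col1a1* was in 0.173, 0.227 and 0.23% and *Kcnj8* in 0.0863, 0.0325 and 0.153% of neuronal-like cells. Of the marker-poor members, whose few UMIs lie nearest to these shares, none is read as a cell type.

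Fibroblast-like cells differed among themselves in *Ptgds*. It was present in 12, 13 and 5 of them, and the single highest cell of each library held 317, 1316 and 1131 of its 972, 3608 and 1773 UMIs, or 32.6, 36.5 and 63.8%. *Col1a1* was more even, with lowest, median and highest counts per cell of 1, 4 and 52 in wild-type, 2, 7 and 44 in nestin-Cre and 0, 19 and 69 in Emx1-Cre. Some of the fibroblast-like cells, 6, 4 and 3 of them, carried *Cdh5*, which encodes VE-cadherin, a junction protein of endothelium. They were singled out after the values were seen. Their 11 other endothelial markers gave 20, 7 and 18 UMIs, against 21, 26 and 9 in the 18, 11 and 4 fibroblast-like cells without *Cdh5*. *Ptgds* was at 26529, 86315 and 60911 CPM in cells with *Cdh5* and 4816, 20191 and 30971 CPM in cells without. *Aldh1a2* was at 672, 1135 and 1429 CPM in cells with *Cdh5* and 260.3, 335 and 980.4 CPM in cells without. Cells with *Cdh5* were the higher in both retinoid genes in all 3 libraries, and also in *Col1a1*, *Dcn* and *Slc6a13*, so the difference was not confined to retinoid genes. Other genes went both ways. *Igf2* in Emx1-Cre was at 2661 CPM with *Cdh5* and 3806 CPM without, *Aebp1* in Emx1-Cre at 542 and 807 CPM, and *Cldn11* at 106 and 130 CPM in wild-type and 443.5 and 461 CPM in Emx1-Cre. *Igfbp6*, an IGF-II-binding protein, was at 283, 1778 and 4731 CPM (8, 47 and 96 UMIs) in cells with *Cdh5* and 195, 426 and 0 CPM (9, 28 and 0 UMIs) in cells without, and it was present in 3, 4 and 3 fibroblast-like cells in all. The 6, 4 and 3 cells with *Cdh5* held 28271, 26438 and 20292 UMIs in all. The 18, 11 and 4 cells without it held 46093, 65672 and 17339. Cells with *Cdh5* were thus the deeper on average in every library. With so few cells, the differences between cells with and without *Cdh5*, and the part of depth in them, were not tested.

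The genotypes were then compared for how many such cells each library held. The mural side made up 0.436% (0.322 to 0.578) of filtered cells in wild-type, 0.165% (0.0822 to 0.294) in nestin-Cre and 0.628% (0.451 to 0.851) in Emx1-Cre (exact binomial intervals). The shares relative to wild-type were 0.377 (0.176 to 0.736) and 1.44 (0.924 to 2.23). Emx1-Cre was the highest and nestin-Cre the lowest. The fibroblast side made up 0.255% (0.169 to 0.368), 0.179% (0.0928 to 0.313) and 0.0919% (0.0337 to 0.2), and relative to wild-type 0.705 (0.327 to 1.43) and 0.361 (0.122 to 0.888). Here wild-type was the highest and Emx1-Cre the lowest. Marker-rich mural-like cells stood at 0.484 (0.14 to 1.37) and 3.07 (1.65 to 5.91) times the wild-type share, and marker-rich fibroblast-like cells at 1.03 (0.501 to 2.04) and 0.491 (0.179 to 1.18). Marker-poor members stood at 0.191 (0.0591 to 0.482) and 0.392 (0.175 to 0.791).

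Endothelial-like cells give a reference from the same vessels, but not one free of mural RNA. A cell rich in both mural and endothelial genes could count as endothelial-like and never as a member. At least 3 of the 16 mural genes outside the rule were present in 28 of the 72 wild-type endothelial-like cells and in 7 of the 26 of nestin-Cre. The share of endothelial-like cells relative to wild-type was 0.594 (0.364 to 0.942) in nestin-Cre and 0.842 (0.548 to 1.27) in Emx1-Cre. Per endothelial-like cell there were 0.667, 0.423 and 1.14 cells on the mural side, and 0.236, 0.192 and 0.861 mural-like cells. Wild-type and nestin-Cre lay close together by the latter ratio, with Emx1-Cre above. The libraries also differed in the proportion of the 2 kinds, with 0.708, 0.333 and 4.43 mural-like cells per fibroblast-like cell. Genotype, dissection and dissociation of the 1 library each cannot be told apart.

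**Figure D3:**
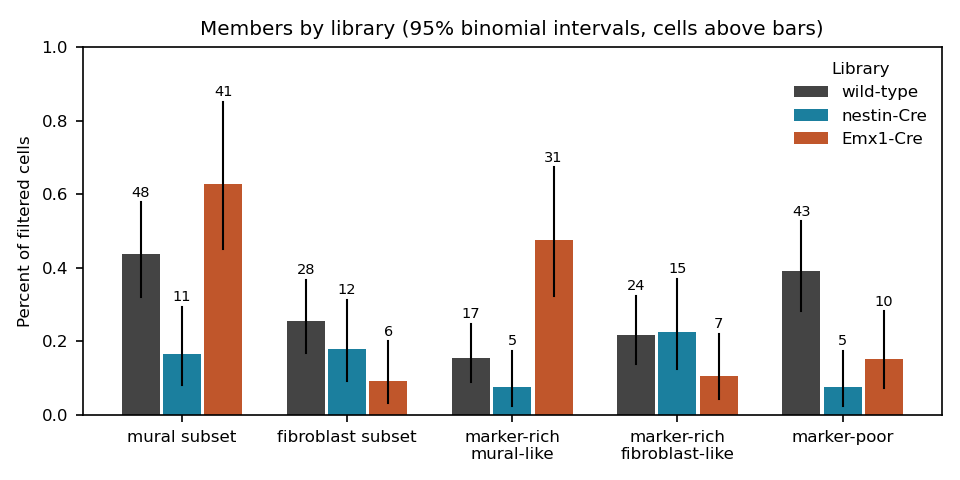
Share of filtered cells (percent, y axis) on the mural and the fibroblast side, in the marker-rich groups and in marker-poor members, for each library. Lines on the bars are exact 95% binomial intervals. The mural side is highest in Emx1-Cre and lowest in nestin-Cre, and the fibroblast side is highest in wild-type.

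RNA per cell was compared because release of P-TEFb is held to raise transcription as a whole. Median UMIs per cell on the mural side were 1485, 3315 and 3159, and on the fibroblast side 1765, 5894 and 4988.5. Both mutants were above wild-type, as they were in all filtered cells. In marker-rich mural-like cells the medians were 2224, 2530 and 2742, and in fibroblast-like cells 1979, 6180 and 4895. Marker-poor members, which made up much of the wild-type mural side, had 1070, 2898 and 4288.5. Genes per cell on the mural side were 939.5, 1730 and 1655 as deposited and 938.5, 907.5 and 938 after thinning to 1500 UMIs, with 24, 1 and 4 shallower cells left out. On the fibroblast side they were 1101, 2486.5 and 2097.5 as deposited and 946, 890 and 844.5 thinned, with 11, 2 and 0 left out. At equal depth the mutants were not above wild-type in either. Library depth and RNA per cell cannot be told apart here.

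Genes were next compared between each mutant and wild-type on the mural side. In nestin-Cre, 6 of 191 genes with at least 100 UMIs in the 2 libraries (3.14%) were at least 2-fold higher and 10 (5.24%) at least 2-fold lower, and the median log2 ratio of all 191 was 0.01. In Emx1-Cre, 4 of 342 (1.17%) were higher and 1 (0.292%) lower, with a median of -0.02. Of genes with at least 100 UMIs in both comparisons, none passed 2-fold in the same direction in both mutants. With fewer UMIs *Ifitm2*, among the 5 highest in both, did so, at 17, 43 and 65 UMIs. Both mutants share the wild-type library, so their ratios are not independent.

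The 6 genes higher in nestin-Cre included collagens. *Ptgds* was at 30.3 CPM in wild-type and 3090.5 in nestin-Cre, *Igfbp2* at 475 CPM in wild-type and 2451 in nestin-Cre and *Igf2* at 586 CPM in wild-type and 2408.5 in nestin-Cre. *Col1a2* was at 404 CPM in wild-type and 1513 in nestin-Cre and *Col3a1* at 444 CPM in wild-type and 1300.1 in nestin-Cre. Both collagens are genes of the rule, so their levels depend on how the cells were chosen, and the count of 6 includes them. Fibroblast-like cells were 6 of the 11 nestin-Cre cells on that side. In marker-rich mural-like cells *Igf2* was also higher in nestin-Cre, at 631 CPM in wild-type and 2186 in nestin-Cre, and so was *Col3a1*, at 78.9 and 841 CPM. The *Col3a1* levels rest on 4 and 10 UMIs, the latter in 2 cells. *Col1a2* was nearly level in CPM there (13 and 3 UMIs), and *Ptgds* had 1 and 0 UMIs, so neither was higher in nestin-Cre. The remaining one, the imprinted noncoding RNA *Meg3*, was at 404 CPM in wild-type and 1556 in nestin-Cre, with 82.2% of the mutant's UMIs in 1 cell. Its log2 ratio was below 0 with members holding an endothelial gene left out (-0.19) and with the highest doublet scores left out (-0.23). Of the 10 lower genes, *Higd1b* (1535 CPM in wild-type and 575.5 in nestin-Cre) and *Igfbp7* (1303 CPM in wild-type and 490.2 in nestin-Cre) were mural genes. *Slc1a2* and *Fabp7* were on the astroglial and *Sox11* on the neuronal marker list, and *Hbb-bs* was at 0 UMIs in the mutant. The other 4 were *Nfia*, *Nfib*, *Dynll1* and *Gng11*. These genes were named after their values were seen. Among the 106 genes with enough UMIs in marker-rich mural-like cells, 0 were higher in nestin-Cre and 2 lower, *H2afz* and *Rpl30*. The collagens, *Ptgds*, *Igfbp2* and *Igf2* had under 100 UMIs there, so that count does not include them. The part of cell kind in the result was not tested.

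In Emx1-Cre the genes past 2-fold on the mural side were likewise named after their values were seen. *Cldn5*, the tight junction protein claudin-5, was at 111 CPM in wild-type and 858 in Emx1-Cre (log2 ratio 2.95, 2.06 to 3.98), and *Bsg*, the surface glycoprotein basigin, at 586 CPM in wild-type and 2419 in Emx1-Cre (log2 ratio 2.05, 1.65 to 2.47). *Fth1*, the ferritin heavy chain that stores iron, was at 1545 CPM in wild-type and 4471 in Emx1-Cre (log2 ratio 1.53, 1.28 to 1.79), and *Hbb-bt*, a beta-globin, at 263 CPM in wild-type and 609 in Emx1-Cre (log2 ratio 1.21, 0.58 to 1.90). The red blood cell list as a whole was at 4131 and 4272 CPM there, a log2 ratio of 0.05 (-0.13 to 0.23). *Cldn5* is a gene of the rule, allowed in a member as its 1 endothelial gene, and 13 Emx1-Cre members had it against 5 in wild-type and 0 in nestin-Cre. At least 3 of the 11 other endothelial markers were present in 2, 1 and 18 cells of the mural side, and that list gave 465, 341 and 1293 CPM there. The 1 lower gene was *Xist*, the RNA of the inactive X chromosome, at 959.5 CPM in wild-type and 466 in Emx1-Cre. In all filtered cells *Xist* was at 1127, 1209 and 634 CPM and the Y-linked *Ddx3y* at 12.2, 24.4 and 42.6 CPM. *Xist* was lowest and *Ddx3y* highest in Emx1-Cre, and the sex of the pooled animals is not given. The part of endothelial RNA and of sex in these differences was not tested.

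By the smaller of the 2 ratios, the genes highest in both mutants on the mural side were *Ifitm2*, *Jun*, *Slc3a2*, *Sept11* and *Meg3*. *Ifitm2*, an interferon-induced membrane protein, was at 172, 916.5 and 404 CPM, with log2 ratios to wild-type of 2.42 (1.58 to 3.32) in nestin-Cre and 1.24 (0.45 to 2.10) in Emx1-Cre. *Jun*, an immediate early transcription factor, was at 404, 682 and 672 CPM, *Slc3a2*, the heavy chain of amino acid exchangers, at 232, 362 and 373 CPM, *Sept11*, a septin, at 252.5, 533 and 392 CPM and *Meg3* at 404, 1556 and 622 CPM. Wild-type was the lowest library for all 5. In marker-rich members the nestin-Cre log2 ratios of *Jun* and *Slc3a2*, with 0.5 added to both counts, were instead -1.94 and -1.61. The genes lowest in both mutants were *Hmgn2*, a nucleosome-binding protein, at 677, 277 and 342 CPM, *Ccnd2*, cyclin D2, at 667, 213 and 379 CPM, *H2afv*, a histone variant, at 656.5, 298 and 379 CPM, *Krtcap2*, of the glycosylation machinery, at 505, 298 and 242.5 CPM, and *Mt3*, a metallothionein of neural cells, at 778, 298 and 473 CPM. In marker-rich members the log2 ratio of *Krtcap2* in nestin-Cre was 0.05 and that of *Mt3* in Emx1-Cre 1.03, so neither was lower in both. The astroglial markers were also lower in both mutants on the mural side, at 7495, 3431.5 and 6063 CPM. Their part in the lower genes was not tested. The ratios of *Hmgn2* were -1.29 (-2.27 to -0.42) in nestin-Cre and -0.98 (-1.53 to -0.45) in Emx1-Cre (log2). With 0.5 added to both counts they ranged from -1.34 to -0.09 in nestin-Cre and from -1.12 to -0.38 in Emx1-Cre across the alternatives, and the nestin-Cre ratio was nearly 0 with members holding genes of other classes left out. The interferon list of 12 gave 1071, 2515 and 1629 CPM and the immediate early and heat shock list of 14 3363.5, 4732 and 5285 CPM, both lowest in wild-type. In marker-rich mural-like cells the interferon list gave 1617, 3784 and 1909 CPM, again lowest in wild-type. The immediate early and heat shock list gave 3727, 2186 and 5268 CPM, and there nestin-Cre was the lowest, with a log2 ratio of -0.77 (-1.42 to -0.17). The 12 p53 targets gave 394, 277 and 429 CPM on 39, 13 and 69 UMIs.

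In marker-rich mural-like cells few genes of any kind passed 2-fold. Of 106 genes with enough UMIs in nestin-Cre, 0 were higher and 2 lower, and of 217 in Emx1-Cre, 8 were higher and 2 lower. On the lists of potassium channel and signalling genes and of mural markers outside the rule, the genes with enough UMIs were all under 2-fold, like most of these genes. They were 2 genes of the potassium channel and signalling list in nestin-Cre and 4 in Emx1-Cre, and 1 and 4 of the mural markers outside the rule. The potassium channel and signalling list gave 12798, 16313.5 and 13072 CPM, with log2 ratios of 0.35 (0.11 to 0.58) in nestin-Cre and 0.03 (-0.10 to 0.17) in Emx1-Cre. Most of this sum was *Rgs5* and *Kcnj8*, which chose the cells. Without them the list gave 4062, 4709 and 4764 CPM (206, 56 and 539 UMIs), with log2 ratios of 0.21 (-0.24 to 0.65) and 0.23 (0.00 to 0.47), and no difference was detectable. The contractile list gave 10925, 10007 and 7557 CPM, with log2 ratios of -0.13 (-0.42 to 0.16) in nestin-Cre and -0.53 (-0.69 to -0.38) in Emx1-Cre, where *Vim*, named after its values were seen, was past 2-fold lower. The 1 wild-type cell with smooth muscle genes adds to its wild-type sum. The 16 mural markers outside the rule had summed log2 ratios of -0.02 (-0.33 to 0.28) in nestin-Cre and -0.12 (-0.28 to 0.04) in Emx1-Cre. Basement membrane genes gave 7277, 13370.3 and 7795 CPM, highest in nestin-Cre, where the log2 ratio was 0.88 (0.60 to 1.15). Cell cycle genes gave 3175, 336 and 1538 CPM (161, 4 and 174 UMIs), with log2 ratios of -3.24 (-5.13 to -1.85) and -1.05 (-1.36 to -0.73). Wild-type was the highest, but the same wild-type cell of 6876 UMIs that held the smooth muscle genes held 89 of its 161 UMIs. With the highest cell of each library left out the list gave 1643, 214 and 1125 CPM. *H2afz*, a histone variant, was at 2110, 841 and 884 CPM, with log2 ratios to wild-type of -1.33 (-2.43 to -0.39) in nestin-Cre and -1.25 (-1.66 to -0.85) in Emx1-Cre, and was the 1 gene past 2-fold in both mutants among those with at least 100 UMIs in both comparisons. *Hmgb2*, a chromatin protein of dividing cells, was at 1144, 84.1 and 636 CPM (58, 1 and 72 UMIs). A single wild-type cell held 40.2% of that library's *H2afz* UMIs, and 1 wild-type cell held 44.8% of its *Hmgb2* UMIs. With the highest cell of each library left out *H2afz* was at 1433, 816 and 772 CPM, under 2-fold in both mutants. The other genes lowest in both mutants were *Xist* at 887, 252 and 459.6 CPM, *Dynll1*, a dynein light chain, at 1617, 757 and 963 CPM and *Lgals1*, galectin-1, at 1045, 504.5 and 636 CPM. For *Lgals1* 1 wild-type cell held 29 of 53 UMIs (54.7%), and without it wild-type was at 547.5 CPM, below the 636 CPM of Emx1-Cre. With the highest cell left out in all 3 libraries the levels were 547.5, 349.8 and 419 CPM. The 5 highest were *Fth1* at 1242, 2691 and 3155 CPM, *Apoe*, a lipid carrier, at 729.6, 1345 and 3023 CPM (1 cell held 10 of the 16 nestin-Cre UMIs, and with the highest cell of each library left out the levels were 654, 699.5 and 2330 CPM), *Ckb*, creatine kinase, at 513, 925 and 1069 CPM, *Pkm*, pyruvate kinase, at 414, 673 and 742 CPM and *Sept7*, a septin, at 1025, 1766 and 1617 CPM. The astroglial markers were also higher in Emx1-Cre than in wild-type in these cells, at 3135.5 and 5453 CPM, and their part in the *Apoe* level was not tested.

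On the fibroblast side the same comparison gave, in nestin-Cre, 3 of 188 genes (1.6%) higher and 5 (2.66%) lower, with a median log2 ratio of -0.18. In Emx1-Cre, 9 of 150 (6%) were higher and 13 (8.67%) lower, with a median of 0.03. The Emx1-Cre values rest on 6 cells. In marker-rich fibroblast-like cells, 3 of 210 genes were higher and 6 lower in nestin-Cre, and 7 of 158 higher and 13 lower in Emx1-Cre. Of genes with at least 100 UMIs in both comparisons, *Ptgds* alone was higher and *Nfib* and *Sox11* were lower by at least 2-fold in both mutants on the fibroblast side. In marker-rich cells, under the same limit, these were *Ptgds*, and *Nfib* and *Tubb5*. In cells thinned to 1500 UMIs the nestin-Cre log2 ratio of *Sox11* was -0.77, under 2-fold. Genes with fewer UMIs, *Jun* and *Igfbp6* among them, also passed 2-fold in both mutants.

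*Ptgds* was at 13197, 44975 and 51247 CPM, with log2 ratios to wild-type of 1.77 (1.67 to 1.87) in nestin-Cre and 1.96 (1.84 to 2.07) in Emx1-Cre. Wild-type was the lowest. In marker-rich fibroblast-like cells the order was the same, at 13071, 39171 and 47115 CPM, and within the cells with *Cdh5* and within those without it wild-type was again the lowest. The order of the mutants turned with the highest cell of each library left out. The fibroblast side was then at 9775, 32063 and 25657 CPM, with wild-type still the lowest. *Igfbp6* was at 229, 922 and 2775 CPM and *Jun* at 175, 766 and 896 CPM. In the Emx1-Cre library 1 cell held 78.1% of the *Igfbp6* UMIs and 1 cell 90.3% of the *Jun* UMIs, so each of these levels came mostly from 1 cell. In nestin-Cre 1 cell held 66.2% of the *Igfbp6* and 1 cell 52.5% of the *Jun* UMIs. With the highest cell of each library left out, *Jun* was at 143, 418 and 106 CPM, so that Emx1-Cre was below wild-type, and *Igfbp6* at 119, 358 and 839 CPM. With members that held an endothelial gene left out, the Emx1-Cre cells had no *Igfbp6* UMI (log2 ratio -2.43 with 0.5 added to both counts), and the log2 ratio of *Jun* was -0.11. *Meg3* was at 592, 2636 and 1127 CPM, with 77.8% of the nestin-Cre UMIs in 1 cell, and *Sptbn1*, a spectrin, at 417, 792 and 1012 CPM. With the highest cell of each library left out *Meg3* was at 413.5, 699 and 709.5 CPM, under 2-fold in nestin-Cre. With marker-rich cells the 5 highest genes were *Jun*, *Igfbp6*, *Ptgds*, *Aebp1*, a collagen-binding protein, at 296, 608 and 664 CPM, and *Akap12*, a kinase scaffold, at 336, 673 and 717.5 CPM. The remaining gene past 2-fold in nestin-Cre beside *Ptgds* and *Meg3* was *Fos*, an immediate early gene, at 323 CPM in wild-type and 1221 in nestin-Cre. In Emx1-Cre the 9 included *Ptgds*, *Igfbp6*, *Col1a1*, *Col1a2*, *Col3a1*, *Vtn*, *Vim*, the intermediate filament vimentin, and *S100a6*, a calcium-binding protein. Of these, *Col1a1*, *Col1a2*, *Col3a1* and *Vtn* are genes of the rule. Their levels depend on how the cells were chosen, and the count of 9 includes them. Genes past 2-fold in 1 mutant were named after their values were seen.

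Several of the genes lowest in both mutants are known from neural cells. *Igfbpl1*, a secreted protein of newborn neurons, was at 1265, 182 and 116 CPM, and *Sox11*, a transcription factor of the same cells, at 1587, 389.6 and 116 CPM. *Sox4*, its relative, was at 1130, 597 and 434 CPM. The nuclear factors *Nfia* and *Nfib* are broadly used in neural precursors. *Nfia* was at 1063, 364 and 57.8 CPM and *Nfib* at 2341, 1065 and 57.8 CPM. Wild-type was the highest for all 5. The fifth gene past 2-fold in nestin-Cre, beside *Igfbpl1*, *Sox11*, *Nfia* and *Nfib*, was *Mdk* (1117 CPM in wild-type and 545.5 in nestin-Cre), named after its values were seen. The 12 neuronal markers summed to 3699.5, 1870.2 and 173 CPM on this side, with 12, 12 and 3 present, and the 12 astroglial markers to 3538, 5792 and 1329.6 CPM. *Sox11* was the most abundant neuronal marker in wild-type and Emx1-Cre and *Stmn2* in nestin-Cre. *Sox11* itself gave 118 of the 275 UMIs of the neuronal list in wild-type, 30 of 144 in nestin-Cre and 4 of 6 in Emx1-Cre. The list moved with these genes partly through *Sox11*, and the part of neuronal RNA was not tested. In marker-rich cells *Sox11* was at 1129.6, 228 and 106 CPM, *Nfib* at 1788.5, 499 and 106 CPM and *Nfia* at 1009, 282 and 79.7 CPM. The other genes lowest in both mutants there were *Tubb5*, a tubulin, at 1641, 749 and 691 CPM and the noncoding *AY036118* at 834, 413 and 292 CPM.

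The summed matrix lists were highest in the Emx1-Cre cells, few as these were. The collagen list gave 8919, 9377 and 24684 CPM on the fibroblast side, with log2 ratios of 0.07 (-0.08 to 0.23) and 1.47 (1.32 to 1.62), and 9332.5, 10259.5 and 23358 CPM in marker-rich cells. Most of the list sum came from 3 genes of the rule. Without them it gave 1453, 1675 and 4364.5 CPM on the fibroblast side (108, 129 and 151 UMIs), with log2 ratios of 0.21 (-0.17 to 0.59) and 1.59 (1.22 to 1.96). Wild-type and nestin-Cre were close and Emx1-Cre above them. For *Col1a1* the order rested on few cells. It was at 2582, 2799 and 8033 CPM in the 6, 4 and 3 fibroblast-like cells with *Cdh5* and at 2235, 2269 and 1615 CPM in those without, where Emx1-Cre was the lowest. *Dcn* was highest in Emx1-Cre in both, and no other collagen was divided in this way. The matrix proteoglycan and enzyme list gave 5435, 5519.6 and 10955 CPM. Without *Dcn* and *Lum*, which are genes of the rule, it gave 3108, 3584.5 and 6735 CPM. The basement membrane list gave 5865, 6429 and 11851 CPM and the secreted signals 14516, 16221 and 27893 CPM. Emx1-Cre was the highest for each of these sums. The retinoid list, most of it *Ptgds*, gave 15471, 47962 and 57230.4 CPM. The transporter list gave 2112, 2364 and 2659 CPM. Cell cycle genes gave 1399, 909 and 28.9 CPM on 104, 70 and 1 UMIs, lowest in Emx1-Cre. In nestin-Cre 1 cell held 41 of the 70 UMIs. With the highest cell of each library left out the list gave 1281, 439 and 0 CPM.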

How the data were processed

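Single-cell RNA of P7 dentate gyrus was measured in 3 libraries, 1 per genotype, from 10x Genomics 3′ reagents. The authors deposited whole UMI counts per gene and cell barcode, made with Cell Ranger (4.0.0 in the file header) on mm10 and not normalized. Bulk neurosphere libraries of the same series were not used. The members and lists were chosen with earlier results of these data known.

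Cells with more than 500 genes and under 15% mitochondrial UMIs were kept. Comparison cells (endothelial-like, microglial-like, neuronal-like, astroglial-like) had UMIs of at least 3 of the 4 endothelial or of 5 other defining genes of 1 class only and were never members. Levels are UMIs summed over the cells of a library, per 1000000 UMIs of those cells (CPM). A gene was called when it had at least 100 UMIs in the libraries compared and was at least 2-fold apart after 0.5 was added to both sums. Between kinds of cell this was asked in each of the 3 libraries. Printed ratios are of the counts themselves, with a floor of 3 UMIs where a count was 0. Ratios given for alternatives have the 0.5 added, except those of *Larp7*. Intervals are exact 95% limits: Poisson for levels, Clopper-Pearson for shares, conditional binomial for ratios and order statistics for medians. They cover counting error only, and with 1 library per genotype there is no test.

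Genes were named by a set rule: markers of the rule, list members with the most UMIs or the largest ratios, the 10 genes per direction between sides with the largest smallest ratio over libraries, the 5 highest and 5 lowest in both mutants by the smaller of the 2 log2 ratios, *Larp7* with the 7SK and P-TEFb genes, and the 10 most abundant genes. A few genes that the rule picks are left out of the text. The same was listed for the marker-rich groups, which were defined after the data were seen.

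The alternatives tried were more than 200 genes, at least 4 markers, no endothelial gene, a margin of 2 UMIs between sides, removal of the 6% of cells with the highest Scrublet doublet scores, removal of members with genes of other classes, thinning to 1500 UMIs (random seed 1), mean CPM per cell, 1.5-fold, at least 50 UMIs, and intervals of the ratio that leave out 1. Chosen after seeing the data were *Vtn* left out of the sum, marker-rich members only, removal of members with at least 3 of 4 haemoglobin genes, list sums without genes of the rule, and levels without the cell highest in the gene. Python 3.11.15, numpy 2.4.6, scipy 1.17.1, pandas 2.3.3, scanpy 1.11.5 (Scrublet) and matplotlib 3.10.9 were used. The calls were also run on simulated Poisson sums. These had no spread between cells, so they cannot show how calls behave where 1 cell holds most UMIs of a gene.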

Additional observations from a re-analysis of the deposited data

Results flagged for a closer look

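The share of cells on the mural side was picked out because the mutants lay on opposite sides of wild-type. It was 0.377 times the wild-type share in nestin-Cre and 1.438 times in Emx1-Cre, and the Emx1-Cre share was 3.815 times that of nestin-Cre. Marker-rich mural-like cells showed the same order, at 0.4838 and 3.07 times the wild-type share, with the Emx1-Cre share 6.346 times that of nestin-Cre. The difference between the mutants was not tested, as each has 1 library.

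Cells outside the members were picked out because they held 3 or more of the 9 markers. Barcodes at or under 500 genes numbered 1841 in wild-type, 377 in nestin-Cre and 238 in Emx1-Cre. Of these, 9, 0 and 0 held 3 or more markers with at most 1 endothelial gene. The mutants had far fewer such barcodes to begin with. A further 65 wild-type, 15 nestin-Cre and 98 Emx1-Cre cells were left out for their endothelial genes. What these cells are was not tested.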

How the results depend on the processing

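Shares of filtered cells lay within the interval of the reported value in 40 of 54 alternatives, median depths in 51 of 54, and *Larp7* ratios in 14 of 15. Counts of genes past the fold stayed within 1.5 times the reported count in 58 of 112. Of 440 values for genes named between genotypes, 371 lay within their interval, 63 moved and 6, all past 2-fold in the reported value, reversed. Of 198 for genes named between the sides, 163 lay within, 35 moved and 0 reversed. The cause of these shifts was not tested, beyond the fewer cells or genes that an alternative leaves.

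The mural share, reported as 0.436% in wild-type, 0.165% in nestin-Cre and 0.628% in Emx1-Cre, was 0.2546% in wild-type and 0.4134% in Emx1-Cre with at least 4 markers, and 0.3828% in Emx1-Cre with no endothelial gene. With members holding genes of other classes removed it was 0.2827%, 0.07493% and 0.338%. With *Vtn* left out of the sum it was 0.2819% in wild-type and 0.07479% in nestin-Cre, and in marker-rich members 0.1546% and 0.07479%. With haemoglobin-bearing members removed it was 0.2735% in wild-type and 0.4296% in Emx1-Cre. The wild-type fibroblast share, reported as 0.255%, was 0.155% with genes of other classes removed and 0.4365% with *Vtn* left out. The order of the mural shares was nestin-Cre, wild-type, Emx1-Cre under each of these settings. The median depth of the mural side was 2393 UMIs in Emx1-Cre with no endothelial gene, 2200.5 in Emx1-Cre with genes of other classes removed, and 2224 in wild-type in marker-rich members. The fibroblast *Larp7* log2 ratio in nestin-Cre was -0.16 with a margin of 2 UMIs. *Larp7* had too few UMIs for a value on the mural side, and on the fibroblast side thinned, with genes of other classes or haemoglobin-bearing members removed and, in Emx1-Cre, with no endothelial gene.

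Counts of genes past the fold moved most. Those higher on the fibroblast side in Emx1-Cre, reported as 9, were 4 with genes of other classes removed, 5 thinned, 21 by mean CPM, 27 at 1.5-fold, 26 at 50 UMIs and 14 with *Vtn* left out. Those lower, reported as 13, were 1, 2, 21 and 32 with genes of other classes removed, thinned, at 1.5-fold and at 50 UMIs. In nestin-Cre the fibroblast genes higher, reported as 3, were 1 thinned, 8 by mean CPM, 8 at 1.5-fold, 14 at 50 UMIs, 5 with *Vtn* left out and 5 without haemoglobin-bearing members. Those lower, reported as 5, were 11 with the margin of 2 UMIs, 1 thinned, 10 by mean CPM, 20 at 1.5-fold, 15 at 50 UMIs and 9 with *Vtn* left out.

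Mural genes higher in Emx1-Cre, reported as 4, were 2 with at least 4 markers, 7 with the highest Scrublet scores removed, 2 with genes of other classes removed, 12 by mean CPM, 20 at 1.5-fold, 14 at 50 UMIs, 8 in marker-rich members and 2 without haemoglobin-bearing members. Those lower, reported as 1, were 2 at more than 200 genes, 3 with at least 4 markers, 4 with no endothelial gene, 0 with the margin, 4 with the Scrublet removal, 4 with genes of other classes removed, 8 by mean CPM, 13 at 1.5-fold, 14 at 50 UMIs and 2 in marker-rich members. Mural genes higher in nestin-Cre, reported as 6, were 2 with genes of other classes removed, 0 thinned, 17 at 1.5-fold, 17 at 50 UMIs, 1 with *Vtn* left out and 0 in marker-rich members. Those lower, reported as 10, were 6 with at least 4 markers, 4 with genes of other classes removed, 2 thinned, 22 at 1.5-fold, 33 at 50 UMIs, 4 with *Vtn* left out, 2 in marker-rich members and 6 without haemoglobin-bearing members. All 8 counts were the same when the interval of the ratio had to leave out 1.

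Log2 ratios past 2-fold that reversed were those of *Meg3* on the mural side in nestin-Cre, at -0.193 with no endothelial gene and -0.225 with the Scrublet removal, and on the fibroblast side in Emx1-Cre those of *Jun* (-0.107 with no endothelial gene, -0.196 with genes of other classes removed) and *Igfbp6* (-2.429 and -2.905, with 0 UMIs left in the mutant). Mural ratios under 2-fold changed sign too. In nestin-Cre, *Slc3a2* was at -0.933 with genes of other classes removed, -0.427 by mean CPM, -2.358 with *Vtn* left out and -1.608 in marker-rich members. With *Vtn* left out and in marker-rich members, *Jun* was at -1.893 and -1.937 and *Krtcap2* at 0.055 and 0.053 in nestin-Cre, and *Mt3* at 0.412 and 1.033 in Emx1-Cre. With genes of the rule left out, the collagen list on the fibroblast side kept Emx1-Cre highest. With the highest cell of each library left out, *Jun* there fell below wild-type in Emx1-Cre (143 and 106 CPM). The nestin-Cre ratio of *Sox11* on the fibroblast side was under 2-fold when thinned (-0.773). The cause was not tested.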

Other observations

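Each genotype has 1 library, so animals, dissection, library and genotype cannot be told apart. The groups are small, down to 5 mural-like cells in nestin-Cre and 6 cells on the fibroblast side in Emx1-Cre, and single cells held much of several levels. Ratios of mutant to wild-type share the wild-type library. The wild-type cells were the shallowest, and the rule asks for 3 detected markers at any depth. The mutant libraries' titles and genotype entries name opposite Cre lines, and the titles, which were followed, fit the study's cell numbers. The label of mural and leptomeningeal stromal cells was checked in the marker-rich members only, as 43, 5 and 10 members were too poor in markers.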
